A study of Homo sapiens with 6 samples.

Results

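Acute phase proteins are plasma proteins that the liver makes in larger or smaller amounts during inflammation. The 10 genes described here are classical members of the group, namely SERPINA1, SERPINA3, SAA1, SAA2, SAA4, CRP, FGB, FGG, ORM1 and A2M. They were picked by name, and each was read from the array row that the platform annotation assigns to its symbol. Of the 10 genes, 8 had such a row among the 21448 transcript clusters (the array's units of measurement, each covering the transcripts of a locus) and 2 did not, SAA2 and SAA4. A transcript cluster shared by SAA2 and SAA4 stands in for them below.

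The cells were MDA-MB-231, a human triple-negative breast cancer line of mammary and not of hepatic origin. Cells stably transfected with 2 μg of the pUNO1-hOSM vector, which encodes human oncostatin M (OSM), are called MDA-MB-231-hOSM, and cells given the same amount of pUNO1-empty are called MDA-MB-231-hC. Both lines were kept under blasticidin at 10 μg/mL, were grown in parallel, and gave RNA at 3 separate passages, numbered here as sets 1 to 3 (n = 3 Human Clariom S arrays per line, 6 arrays in all). The cells made OSM themselves, no recombinant cytokine is named for these arrays, and no separate transfections are stated, so OSM and any other difference that arose in transfection or selection cannot be told apart. Values are log2 signals, 1 unit being a 2-fold difference, and each difference or log2 fold change is MDA-MB-231-hOSM minus MDA-MB-231-hC.

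In the liver, acute phase genes respond to cytokines of the IL-6 family, to which OSM belongs, and to IL-1. Signals through the shared receptor chain gp130 activate STAT3, while IL-1 acts through NF-κB and both work with C/EBP factors. Genes such as CRP, SAA1 and SAA2 are known to need IL-1 and IL-6 signals together for a full response, whereas the fibrinogen genes and SERPINA3 are known as targets of IL-6-type cytokines. Liver-enriched factors, among them HNF4, set the basal level of many of these genes.

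The transfected gene marked the lines as labelled. OSM read 5.06, 5.11 and 5.26 in MDA-MB-231-hC and 14.90, 14.82 and 14.69 in MDA-MB-231-hOSM (sets 1, 2 and 3). The difference of the measured signals was 9.66 (SE 0.14; limma with the set as a block, adjusted p = 1.75e-06). The control signal was under the background limit given below, against which OSM was at least 506-fold higher. Array medians lay between 6.82 and 6.85. The arrays of a set departed from their line means as near mirror images (r = -0.993, -0.995 and -0.992 over all transcript clusters, which share the arrays). The SD of the set means had a median of 0.0076, against 0.23 for the difference between the lines within a set. How this arose was not tested. The p-values and SEs here rest on 3 within-set differences, with each gene's variance drawn by limma toward that of all transcript clusters. An SE can thus be narrower or wider than the gene's own 3 differences give. The SD of these differences was 1.41 for SERPINA1 and 0.052 for FGG, and the SEs were 0.47 and 0.12. No detection p-values accompany the signals. The 349 olfactory receptor genes, taken to be silent in this line, served as a guide to background, and their 95th percentile was 5.82 in MDA-MB-231-hC and 5.70 in MDA-MB-231-hOSM. Probe sets differ in brightness, so a gene under this limit has no level that can be told from background, and levels are not compared between genes.

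OSM-expressing cells carried far more SERPINA1 and SAA1 signal than control cells, whereas CRP, both fibrinogen chains, ORM1 and A2M lay within the background range in both lines. A gene was called at an adjusted p under 0.1 with more than a 2-fold difference. By this rule 2 of the 8 measured members were called, both higher in MDA-MB-231-hOSM, beside 4.16% of all transcript clusters in either direction, 2.60% higher and 1.57% lower. With no fold limit the same 2 members passed, beside 19.7%. The median log2 fold change of the 8 members was 0.02, beside -0.03 over all transcript clusters. The 3 arrays of one line all lay on the same side of those of the other for 3 of the 8 members, with SERPINA1 and SAA1 above and FGG below, beside 50.0% of all transcript clusters (22.2% above and 27.7% below). One member, SERPINA3, exceeded the background limit in MDA-MB-231-hC and 3 did so in MDA-MB-231-hOSM, namely SERPINA1, SERPINA3 and SAA1. The arrays measured whole cultures, so more transcript per cell and a larger share of cells with the transcript cannot be told apart.

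**Figure D1:**
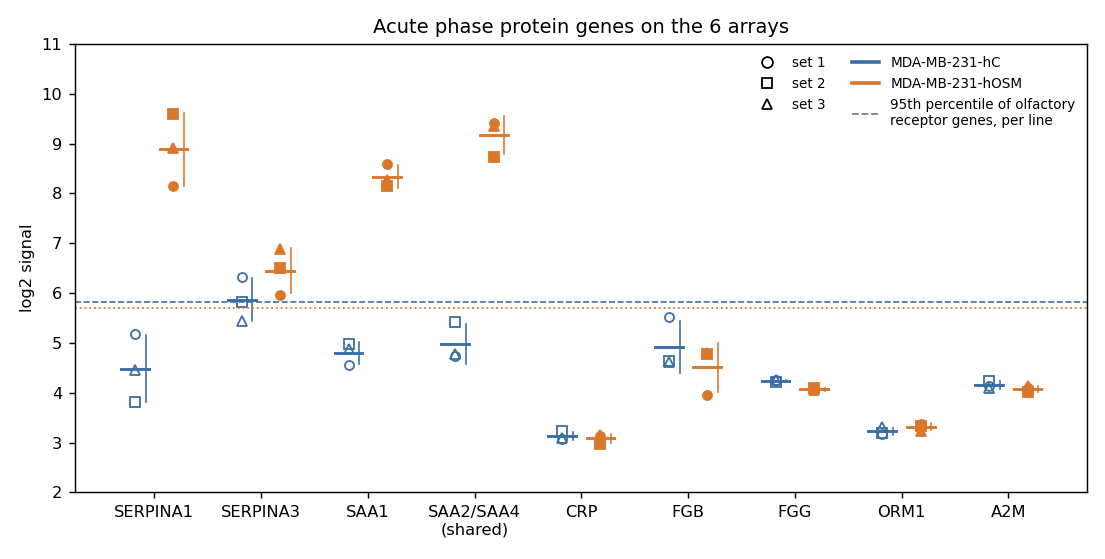
Log2 signal (y axis) of 8 acute phase genes and of the transcript cluster shared by SAA2 and SAA4 on the 6 arrays (blue open symbols, MDA-MB-231-hC; orange filled symbols, MDA-MB-231-hOSM; symbol shape, set). Short horizontal lines are means, vertical bars the SD of 3 arrays, and the dashed blue and dotted orange lines the 95th percentile of 349 olfactory receptor genes in MDA-MB-231-hC (5.82) and MDA-MB-231-hOSM (5.70). SERPINA1, SAA1 and the shared cluster lie under the limit in all control arrays and above 8 in all MDA-MB-231-hOSM arrays.

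SERPINA1 encodes alpha-1-antitrypsin, the main plasma inhibitor of neutrophil elastase. Its signal was 5.17, 3.82 and 4.46 in MDA-MB-231-hC and 8.14, 9.60 and 8.91 in MDA-MB-231-hOSM (sets 1, 2 and 3). All control arrays were under the background limit, all MDA-MB-231-hOSM arrays were well over it, and the lines did not overlap. The means were 4.48 ± 0.68 and 8.88 ± 0.73 (SD, n = 3 each), a log2 fold change of 4.40 (SE 0.47, 95% CI 3.27 to 5.53; 21.1-fold; adjusted p = 0.0033). The difference of the measured signals varied between sets, at 2.97 in set 1, 5.78 in set 2 and 4.45 in set 3. The control signals in it lay within the background range, so this spread is not one of known levels. Without set 3 the log2 fold change was 4.38 and the adjusted p 0.11, which missed the threshold.

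SERPINA3 encodes alpha-1-antichymotrypsin, which inhibits cathepsin G. Its signal was 6.32, 5.83 and 5.45 in MDA-MB-231-hC and 5.97, 6.50 and 6.88 in MDA-MB-231-hOSM. The 2 lines overlapped, and the difference was -0.35 in set 1, 0.67 in set 2 and 1.43 in set 3. The mean difference of 0.58 did not pass the test (SE 0.31, 95% CI -0.17 to 1.33, or 0.89-fold to 2.52-fold; adjusted p = 0.27). SERPINA3 was the member with a mean above the background limit in both lines, at 5.87 ± 0.44 and 6.45 ± 0.46 (SD, n = 3 each), and in neither line did it exceed the 99th percentile of the olfactory receptor genes (7.36 and 6.74). The interval leaves room for a difference of more than 2-fold.

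SERPINA1 and SERPINA3 lie in a cluster of clade A serpin genes on chromosome 14, and the 10 genes of this clade that were listed were all measured. Of these, SERPINA1 was called and the other 9 were not (10% called, beside 4.16% of all transcript clusters). The 8 besides SERPINA1 and SERPINA3 were under the background limit in both lines, with log2 fold changes from -0.33 for SERPINA5, which encodes the protein C inhibitor, to 0.02 for SERPINA10, the inhibitor that acts with protein Z. SERPINA6, which encodes corticosteroid-binding globulin and is the nearest neighbour of SERPINA1, read 4.41 and 4.29 in the mean (difference -0.12, adjusted p = 0.69). SERPINA11, its neighbour on the other side, read 3.18 and 3.14 (difference -0.04, adjusted p = 0.87). Among the 20 protein-coding genes nearest to SERPINA1 in chromosomal order none was called higher, and 1 was called lower, OTUB2, a deubiquitinase gene (difference -1.01, adjusted p = 0.035). Over all transcript clusters 2.60% were called higher and 1.57% lower, and in so short a list such shares give few calls or none.

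**Figure D2:**
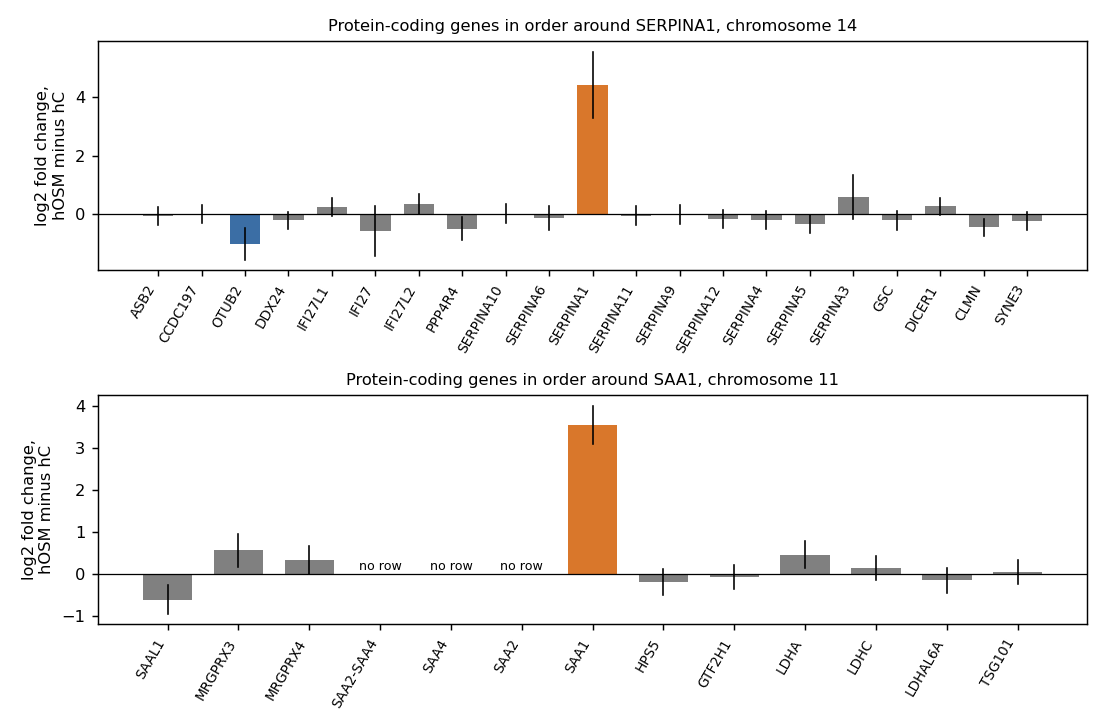
Log2 fold change (y axis, MDA-MB-231-hOSM minus MDA-MB-231-hC) of protein-coding genes in chromosomal order around SERPINA1 (upper panel) and SAA1 (lower panel), with 95% intervals of the limma fit as vertical lines (n = 3 arrays per line). Orange marks genes called higher, blue genes called lower, grey genes not called, and "no row" genes without a transcript cluster of their own. SERPINA1 (4.40) and SAA1 (3.54) stand above neighbours that lie between -1.01 and 0.58.

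The 5′ sequences of SERPINA1 and SERPINA3 are shown because SERPINA1 was called and SERPINA3, a neighbour of the same clade, was not (the difference between the genes was not tested), and FGB is set beside them as an uncalled liver gene. The set of RefSeq promoter windows used here (GRCh38.p14) covered 7 of the 10 members, with 9 starts, and held none for SAA1, SAA2 or A2M. Each line below holds the 250 bases before a start, 5′ to 3′ on the gene's strand, and SERPINA1 has an upstream and a downstream start, of which the downstream is known as the one used in hepatocytes. Capitals mark matches, on either strand and without overlap between motifs, to the STAT motif TTCNNNGAA, the core CTGGGA of the type 2 IL-6 response element and the C/EBP motif TTNNGNAA. The array does not separate the starts.
SERPINA1 downstream start, chr14:94388603-94388852, minus strand: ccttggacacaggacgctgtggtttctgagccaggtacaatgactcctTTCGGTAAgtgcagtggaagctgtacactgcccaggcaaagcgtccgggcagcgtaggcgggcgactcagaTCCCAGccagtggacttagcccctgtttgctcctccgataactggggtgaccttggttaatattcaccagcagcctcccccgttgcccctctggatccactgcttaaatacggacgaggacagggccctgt
SERPINA1 upstream start, chr14:94390636-94390885, minus strand: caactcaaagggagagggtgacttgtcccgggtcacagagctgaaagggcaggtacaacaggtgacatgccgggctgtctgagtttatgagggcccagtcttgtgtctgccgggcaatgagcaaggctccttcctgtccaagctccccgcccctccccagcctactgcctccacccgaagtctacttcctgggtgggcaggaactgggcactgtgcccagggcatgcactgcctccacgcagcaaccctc
SERPINA3, chr14:94612141-94612390, plus strand: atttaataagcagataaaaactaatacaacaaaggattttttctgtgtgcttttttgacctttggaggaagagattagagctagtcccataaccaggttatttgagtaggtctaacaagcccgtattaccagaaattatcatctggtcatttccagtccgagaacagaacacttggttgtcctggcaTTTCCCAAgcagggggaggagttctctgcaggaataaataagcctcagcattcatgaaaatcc
FGB, chr4:154562730-154562979, plus strand: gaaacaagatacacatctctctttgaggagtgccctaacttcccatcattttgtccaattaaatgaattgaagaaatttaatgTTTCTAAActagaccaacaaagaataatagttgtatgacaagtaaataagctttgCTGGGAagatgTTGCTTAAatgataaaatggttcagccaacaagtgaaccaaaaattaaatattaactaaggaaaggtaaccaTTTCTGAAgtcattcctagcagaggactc

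The downstream SERPINA1 window held 1 C/EBP match at -202 to -195 and 1 CTGGGA match at -131 to -126 (on the opposite strand), counted from the start. The upstream SERPINA1 window held no match to any of the 3 motifs. SERPINA3 had 1 C/EBP match at -63 to -56, and FGB had 3 C/EBP matches and 1 CTGGGA match. Across the 9 member windows, 8 held a C/EBP match (33.2% of 35116 windows of the same length), 4 held CTGGGA (28.7%) and 0 held TTCNNNGAA (6.57%). The FGB starts share 219 bases of their windows and so count the same sites again, and by gene 7 of 7 held a C/EBP match and 3 of 7 held CTGGGA. The called gene and the uncalled genes alike carried such letters, which are a description of sequence and no evidence of binding.

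The serum amyloid A genes lie in a cluster on chromosome 11 and encode small apolipoproteins of high-density lipoprotein, of which SAA1 and SAA2 are the inducible forms in liver and SAA4 the constitutive one. SAA1 read 4.55, 4.97 and 4.87 in MDA-MB-231-hC and 8.60, 8.14 and 8.28 in MDA-MB-231-hOSM (sets 1, 2 and 3). The control arrays lay within the background range and the MDA-MB-231-hOSM arrays clear of it, with no overlap. The means were 4.80 ± 0.22 and 8.34 ± 0.24 (SD, n = 3 each), a log2 fold change of 3.54 (SE 0.19, 95% CI 3.09 to 4.0; 11.7-fold; adjusted p = 0.00035). The difference was 4.05, 3.17 and 3.41 in sets 1, 2 and 3 (SD 0.455, beside a median SD of 0.225 over all transcript clusters).

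The transcript cluster shared by SAA2 and SAA4 (with the SAA2-SAA4 readthrough gene) read 4.73, 5.43 and 4.77 in MDA-MB-231-hC and 9.42, 8.73 and 9.36 in MDA-MB-231-hOSM. Again the lines did not overlap. The log2 fold change was 4.19 (SE 0.28, 95% CI 3.53 to 4.86; 18.3-fold; adjusted p = 0.00061), and the differences within sets were 4.69, 3.30 and 4.59. This signal cannot be assigned to SAA2 or to SAA4. SAA1 and SAA2 are also nearly identical in sequence, so their separate signals are uncertain. Of the 12 protein-coding genes nearest to SAA1, 9 had a transcript cluster of their own. None of these was called, beside 4.16% of all transcript clusters. SAAL1 at -0.60 and the receptor gene MRGPRX3 at 0.56 were the farthest from 0.

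Because SERPINA1, SAA1 and the shared cluster were within the background range in the control line, their control levels are not known and the fold changes above are those of the measured signals. Set against the background limit of 5.82 instead of the control signals, SERPINA1 was at least 8.36-fold higher, SAA1 at least 5.74-fold and the shared cluster at least 10.2-fold. These bounds depend on the limit chosen. Against the 99th percentile of the olfactory receptor genes (7.36) they were 2.87-fold, 1.97-fold and 3.5-fold. Against the 95th percentile of 133 keratin-associated protein, beta-defensin and taste receptor genes (8.37) they were 1.42-fold for SERPINA1 and 1.74-fold for the shared cluster, and SAA1 (8.34) gave no bound.

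**Figure D3:**
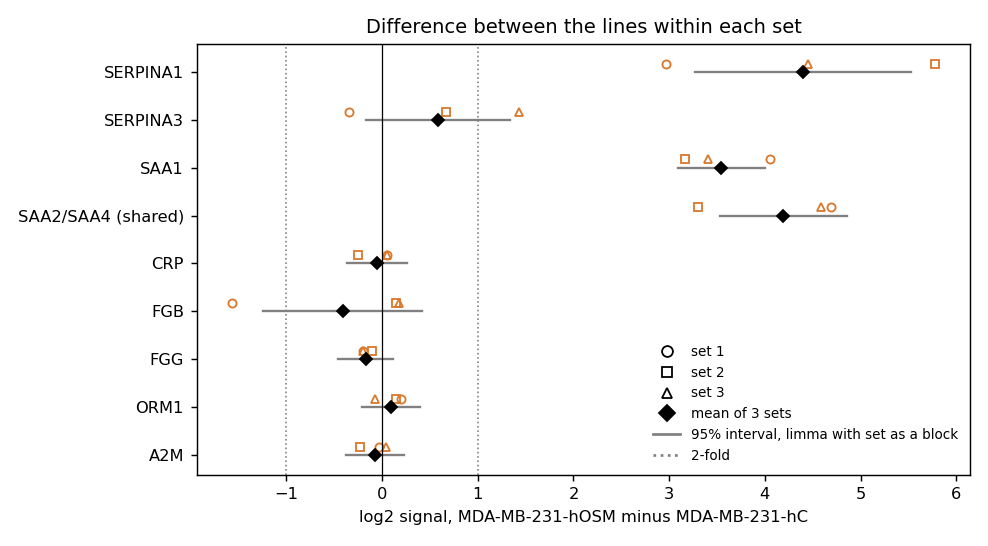
Difference in log2 signal (x axis, MDA-MB-231-hOSM minus MDA-MB-231-hC) within each set (open symbols) for 8 acute phase genes and the transcript cluster shared by SAA2 and SAA4, with the mean of 3 sets (black diamonds) and the 95% interval of the limma fit with the set as a block (grey bars). Dotted lines mark a 2-fold difference. SERPINA1 spreads from 2.97 to 5.78, SAA1 from 3.17 to 4.05, and the intervals of the other 6 genes include 0.

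CRP encodes C-reactive protein, a pentraxin that binds phosphocholine on microbes and damaged cells. It read 3.08, 3.23 and 3.10 in MDA-MB-231-hC and 3.13, 2.98 and 3.15 in MDA-MB-231-hOSM. All 6 arrays were at the low end of the background range, where 11.5% and 8.31% of the olfactory receptor genes read no higher. The difference was -0.05 (SE 0.13, 95% CI -0.36 to 0.26; adjusted p = 0.83).

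FGB encodes the beta chain of fibrinogen, the precursor of fibrin in clots. It read 5.52, 4.63 and 4.62 in MDA-MB-231-hC and 3.95, 4.78 and 4.80 in MDA-MB-231-hOSM. Set 1 held the highest and the lowest of the 6 arrays, with a difference of -1.57 against 0.15 and 0.18 in sets 2 and 3. The mean difference of -0.41 did not pass the test (SE 0.34, 95% CI -1.24 to 0.42; adjusted p = 0.48), and without set 1 it was 0.17. FGG, the gamma chain gene, read 4.26, 4.21 and 4.25 in MDA-MB-231-hC and 4.06, 4.10 and 4.05 in MDA-MB-231-hOSM. The MDA-MB-231-hOSM arrays all lay under the control arrays, by -0.17 in the mean, and the difference did not pass the test (SE 0.12, 95% CI -0.46 to 0.12; adjusted p = 0.40). FGA, which encodes the alpha chain, was likewise under the background limit, at 3.87 ± 0.14 and 4.09 ± 0.15 (difference 0.23, adjusted p = 0.37).

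ORM1 encodes orosomucoid, a plasma glycoprotein of the lipocalin family that carries drugs and modulates immune cells. It read 3.17, 3.19 and 3.31 in MDA-MB-231-hC and 3.37, 3.34 and 3.24 in MDA-MB-231-hOSM, and the lines overlapped (difference 0.09, SE 0.13, 95% CI -0.21 to 0.40; adjusted p = 0.67). Its near-identical copy ORM2 gave means of 3.43 and 3.43 (difference -0.01, adjusted p = 0.98), and the array may not separate the copies. A2M encodes alpha-2-macroglobulin, a protease trap that is a major acute phase protein in rats and only a weak responder in humans. It read 4.13, 4.24 and 4.09 in MDA-MB-231-hC and 4.10, 4.01 and 4.13 in MDA-MB-231-hOSM, again with overlap (difference -0.07, SE 0.13, 95% CI -0.38 to 0.23; adjusted p = 0.74). The intervals of CRP, FGG, ORM1 and A2M all lay within a 2-fold difference in either direction, on signals within the background range.

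Other genes known to respond in the acute phase, most of them made in the liver, were counted for comparison. Of 37 listed, 32 had a row, and 6 rose, 2 fell and 24 were not called (median 0.09). The share called was 25%, beside 4.16% of all transcript clusters, in a list chosen with earlier results of these data known. Of the 32, 18 were under the background limit in both lines. Of the 10 complement genes measured in this list, 4 rose, 1 fell and 5 (C4A, C4BPA, C9, MBL2 and SERPING1) were not called. The share called among these was 50%. Without the complement genes 22 were measured, of which 2 rose and 1 fell (13.6% called, median -0.02). C3, the central complement protein, read 5.34, 5.39 and 5.24 in MDA-MB-231-hC and 9.75, 9.64 and 9.80 in MDA-MB-231-hOSM (difference 4.41, SE 0.13, adjusted p = 5.6e-05). CFB, which encodes factor B of the alternative pathway, rose by 4.28 (adjusted p = 0.0036) from 8.63 ± 0.75, a mean above the background limit. C1S and C1R, the proteases of the first complement component, rose by 3.37 and 2.23 (adjusted p = 0.00054 and 0.00053).

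Of the 6 genes that rose, CD14 had the largest change. It encodes the co-receptor for bacterial lipopolysaccharide, best known from monocytes and also secreted by liver, and it read 5.67, 4.81 and 4.63 in MDA-MB-231-hC and 12.78, 13.70 and 13.90 in MDA-MB-231-hOSM (difference 8.42, SE 0.39, adjusted p = 0.00021). LBP, the lipopolysaccharide-binding protein that hands its ligand to CD14, rose by 2.66 (adjusted p = 0.011) but had an adjusted p of 0.14 without set 3. C3, C1S, C1R, LBP and CD14 were under the background limit in the control line, and against that limit they were at least 15-fold, 5.87-fold, 1.98-fold, 2.08-fold and 199-fold higher. Against the 99th percentile (7.36) C3, C1S and CD14 gave 5.17-fold, 2.02-fold and 68.5-fold, and C1R and LBP gave no bound. The genes that fell were C4BPB, a chain of the complement inhibitor C4b-binding protein (difference -1.23, adjusted p = 0.011), and PTX3, the long pentraxin made outside the liver (difference -1.03, adjusted p = 0.093). Leaving out any set ended the PTX3 call, and leaving out set 2 or set 3 ended that of C4BPB. HP, which encodes haptoglobin, was -0.58 (adjusted p = 0.060), under the 2-fold limit.

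Negative acute phase genes are those whose liver output falls in inflammation. With limma they gave 0 calls among the 15 measured of 18 listed, with the set as a block or without it. Over all transcript clusters 4.16% were called with the block and 4.19% without it. Of the 15, 13 were under the background limit in both lines, and the median log2 fold change was -0.03. ALB, the albumin gene, read 5.46 ± 0.05 and 5.32 ± 0.07 (difference -0.14, adjusted p = 0.50), and TTR, the transthyretin gene, 4.91 ± 0.04 and 4.69 ± 0.05 (difference -0.22, adjusted p = 0.29; SD, n = 3 each). Background signals can show no fall.

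Of 16 hepatocyte markers measured, 14 were under the background limit in both lines and none was called, beside 4.16% of all transcript clusters. The other 2 were above it in both, CPS1, a urea cycle enzyme gene (7.19 and 7.10), and APOC3, an apolipoprotein gene (6.47 and 6.03). The summed level of the list was 72.00 to 73.68 over the control arrays and 70.44 to 72.20 over the MDA-MB-231-hOSM arrays. None of 8 macrophage and leukocyte markers was called (summed level 44.34 to 44.60 and 44.72 to 45.04). CD68 was above the background limit in both lines, CSF1R above it in MDA-MB-231-hOSM alone and the other 6 under it. With no fold limit CSF1R (difference 0.44, adjusted p = 0.093) and MS4A1 (0.39, adjusted p = 0.095) passed, beside 19.7% of all transcript clusters. CD14, which rose by 8.42, was not in this list. Lists of 8 or 16 genes would hold few calls or none at the share of 4.16%. All 6 breast epithelial and line markers were above the background limit. KRT8, KRT18 and KRT19 rose by 1.01, 1.09 and 1.08 in MDA-MB-231-hOSM, and EPCAM fell by 1.10. Their part in the SERPINA1 and SAA1 differences was not tested.

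Of 47 listed genes for ligands, receptors and factors that act on acute phase genes, 41 were measured. Of these, 11 rose, 4 fell and 26 were not called, with a median of 0.20. The share called was 36.6%, beside 4.16% of all transcript clusters, in a list chosen with earlier results of these data known. Among the ligands, IL1B read 6.67, 7.52 and 6.46 in MDA-MB-231-hC and 11.91, 11.12 and 12.10 in MDA-MB-231-hOSM (difference 4.83, SE 0.37, adjusted p = 0.0010). IL6 read 6.87, 7.35 and 5.78 against 8.87, 8.45 and 10.03 (difference 2.45, SE 0.54, adjusted p = 0.036), and leaving out any set ended its call (adjusted p 0.11 to 0.17). Both cytokine genes were higher on each MDA-MB-231-hOSM array than on every control array, as were 22.2% of all transcript clusters. IL11, a further ligand of the gp130 family, fell by 1.55 from 11.15 ± 0.19 to 9.60 ± 0.19 (adjusted p = 0.0038).

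Among the receptors, IL1RAP and IL1R1, which together form the signaling receptor of IL-1, rose by 4.06 and 2.20 (adjusted p = 0.00011 and 0.0021). OSMR, the chain that pairs with gp130 to bind OSM, rose by 2.94 from 10.24 ± 0.17 to 13.18 ± 0.15 (adjusted p = 0.00035). IL6ST, the gp130 gene, differed by 0.86 (adjusted p = 0.018) and IL6R, the IL-6 receptor chain, by 0.55 (adjusted p = 0.040). Both were under the 2-fold limit, and IL6R was under the background limit in both lines. Leaving out a set gave adjusted p of 0.085 to 0.133 for IL6ST and 0.158 to 0.186 for IL6R. LIFR, the LIF receptor chain, with which gp130 forms a further receptor that binds OSM in humans, fell by 1.94 from 9.43 ± 0.31 (SE 0.23, adjusted p = 0.0049). TNFRSF1A, a TNF receptor gene, rose by 1.15 (adjusted p = 0.0030). Receptor genes thus went both ways, with IL1RAP, IL1R1, OSMR and TNFRSF1A called higher and LIFR called lower.

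Inside the cell, SOCS2, a cytokine-inducible feedback inhibitor, fell by 3.67 (adjusted p = 0.0029). Without set 3 its adjusted p was 0.101, which ended the call. SOCS3, the main feedback inhibitor of gp130 signaling, rose by 2.16 (adjusted p = 0.0019), from a control mean under the background limit (at least 2.02-fold against that limit, and no bound against the 99th percentile). STAT3 itself differed by 0.82 (adjusted p = 0.020), again under the 2-fold limit. So did CEBPB, a C/EBP factor first known as a mediator of IL-6 responses, by 0.81 (adjusted p = 0.032). Leaving out a set gave adjusted p of 0.101 to 0.141 for STAT3 and 0.087 to 0.20 for CEBPB. CEBPB was called without set 2 alone, at 1.005. CEBPD, its relative, was called at 1.05 (adjusted p = 0.023) on means under the background limit, and leaving out set 2 or set 3 ended the call. FOXA2, a liver-enriched factor, fell from 8.16 ± 0.23 to 6.33 ± 0.24 (difference -1.83, adjusted p = 0.0032).

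**Figure D4:**
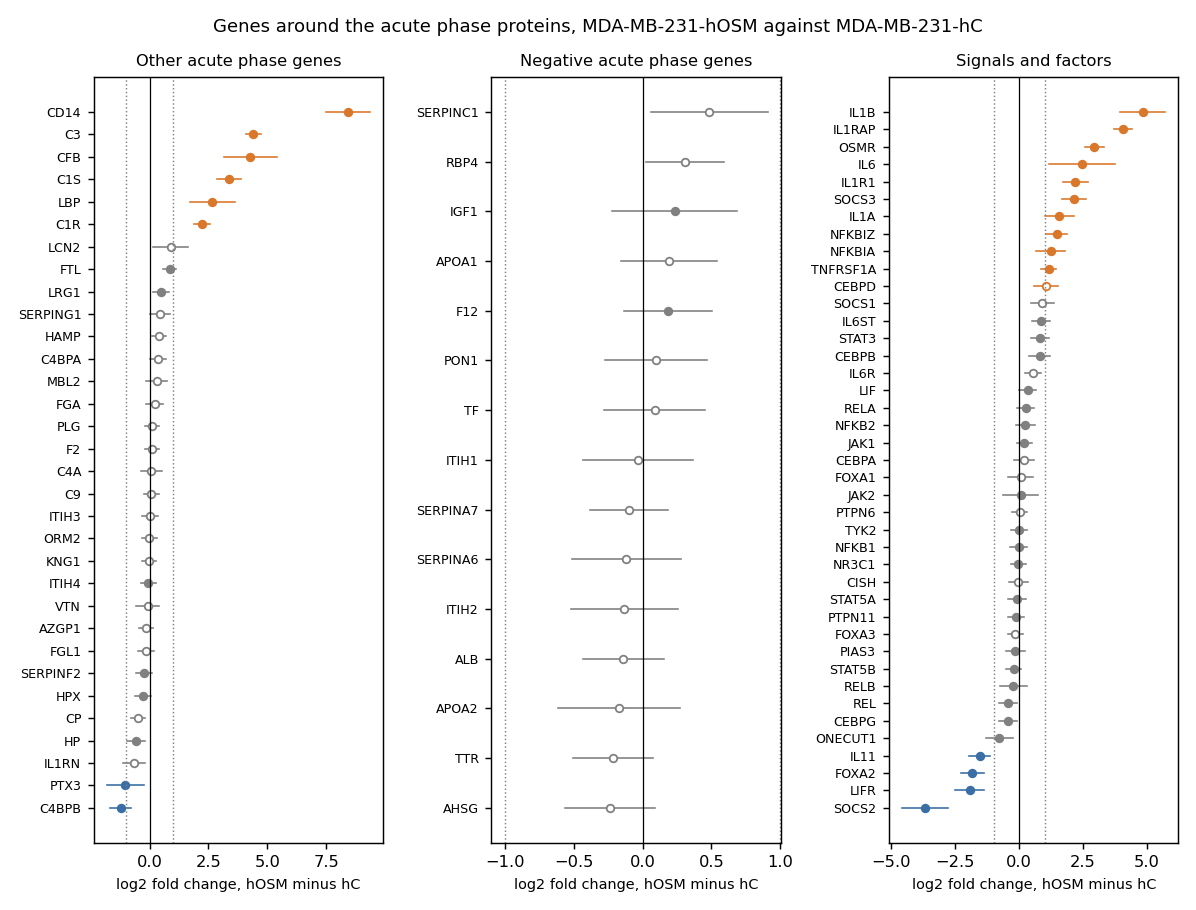
Log2 fold change (x axes, MDA-MB-231-hOSM minus MDA-MB-231-hC, with separate scales) of 32 other acute phase genes, 15 negative acute phase genes and 41 signal and factor genes, each with the 95% interval of the limma fit (n = 3 arrays per line). Orange marks genes called higher, blue genes called lower and grey genes not called, open symbols mark genes under the background limit in both lines, and dotted lines mark a 2-fold difference. CD14 (8.42), IL1B (4.83) and C3 (4.41) lie far to the right, and all 15 negative acute phase genes lie within a 2-fold difference.

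The genes whose pattern over the 6 arrays came closest to the called members were found by the Euclidean distance of log2 signals, each gene taken relative to its mean in MDA-MB-231-hC. For SERPINA1 these were TGFBI, which encodes an extracellular matrix protein (distance 0.56), the gasdermin gene GSDMC (0.95) and LOX, the lysyl oxidase gene (1.08). For SAA1 they were SERPINB7, a clade B serpin gene (0.18), C1S (0.40) and FBXO32, which encodes a ubiquitin ligase subunit (0.50). The likeness covers both the size of the difference and its spread over the sets, the largest difference being in set 2 for SERPINA1 and in set 1 for SAA1. It rests partly on control signals of SERPINA1 and SAA1 within the background range. Control means were under the background limit for GSDMC, SERPINB7 and C1S too, but were 8.86 for TGFBI, 10.49 for LOX and 8.11 for FBXO32. As the arrays of a set were near mirror images, the 6 arrays are not 6 independent values.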

How the data were processed

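The members and all gene lists were chosen with earlier results of these data known. RNA of both MDA-MB-231 lines (3 passages each) was hybridized to Human Clariom S arrays. The deposited values are log2 signals, 1 for each of 21448 transcript clusters and 6 arrays, which the authors made by RMA in the Transcriptome Analysis Console 4.0 (submitters' processing notes). RMA pulls dim signals together, which shrinks differences near background. The sources used here do not name the RMA variant or the genome build. Values were used as deposited. The platform annotation gives 1 symbol for 17709 transcript clusters, several for 0 and none for 3739. Where a gene had more than 1 transcript cluster (20 genes), the one with the highest mean was taken. All members with a row had 1. The shared SAA2 and SAA4 cluster was named from the study's own annotation of its arrays, and was added after the data were seen.

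Lines were compared with limma 3.58.1 in R 4.3.3 (lmFit and eBayes, set as a block), with Benjamini-Hochberg adjustment over all transcript clusters. Calls needed an adjusted p under 0.1 and over 2-fold, the thresholds in the study's methods. The set number pairs the arrays, since both lines were cultured side by side and the labels number both alike. Samples of a set departed in opposite directions from their line means, with r of -0.992 to -0.995, so no positive pairing shows in the values. The fit was tested on simulated data. Precision is limited by 3 arrays per line, and spread between transfections was not measured.

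Genes named were all members, OSM, up to 6 called genes per list by size of change, up to 4 others whose role bears on a member, and the 3 nearest patterns of each called member. SOCS3, CEBPD, FOXA2, LIFR, IL11, TNFRSF1A, further complement genes, the neighbours, markers and clade A serpins besides these were named after their values were seen. Alternatives were no block, quantile normalization, median centring, leaving out the dimmest 1 in 3 transcript clusters, trend and robust eBayes, other thresholds, other background limits, and each set or array left out.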

Additional observations from a re-analysis of the deposited data

How the results depend on the processing

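The call of SAA1 and its direction held under every alternative run (log2 fold change 3.29 to 3.73, adjusted p 3.22e-06 to 0.040), and so did those of the shared SAA2 and SAA4 cluster (3.95 to 4.64, adjusted p 5.41e-06 to 0.049). SERPINA1 stayed between 3.71 and 5.12 and lost its call without set 3 alone. Leaving out each set or array in turn gave 1 to 2 called members, 5 to 8 called genes of the wider acute phase list (5 to 7 over the sets), 12 to 16 of the signals and factors and 663 to 939 of all transcript clusters. With no fold limit the wider list had 14 calls and all transcript clusters 4217. The number of members above background in MDA-MB-231-hC was 0 with the 99th percentile, with keratin-associated protein, beta-defensin and taste receptor genes as the guide, or with all 3 arrays required to pass, against 1 otherwise.

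Without the set as a block the calls were 2 members, 8 wider acute phase genes, 0 negative acute phase genes, 15 signals and factors and 899 transcript clusters (4.19%), so the block changed no count by over 1.5 times. Both called members kept their calls (adjusted p 0.0011 for SERPINA1 and 4.57e-05 for SAA1), and FGG had an adjusted p of 0.036 there, still under 2-fold. Small uncalled differences changed sign. Leaving out a set gave -0.71 to 0.17 for FGB, -0.10 to 0.05 for CRP, -0.13 to 0.005 for A2M and -0.095 to 0.11 for ORM2, with the positive value of FGB and ORM2 without set 1 and of CRP and A2M without set 2. In the fit without the block ORM2 became 0.052 without either array of set 1, and CRP 0.003 without the MDA-MB-231-hOSM array of set 2. The cause was not tested. Signals near background limit what can be said of CRP, FGB, FGG, ORM1 and A2M, and 3 sets limit the precision throughout.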
